A study of Mus musculus with 4 samples.

Results

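The genes described here are 39 nuclear receptors, chosen by name and found by their NCBI gene number among the 24532 genes in the authors' tables. They were the receptors for thyroid hormone (*Thra*, *Thrb*), retinoic acid (*Rara*, *Rarb*, *Rarg*), the retinoid X receptors or RXRs (*Rxra*, *Rxrb*, *Rxrg*), the PPARs (*Ppara*, *Ppard*, *Pparg*), the LXRs (*Nr1h2*, *Nr1h3*), the bile acid receptor *Nr1h4*, the xenobiotic receptors *Nr1i2* and *Nr1i3*, the vitamin D receptor *Vdr*, and the receptors for estrogen (*Esr1*, *Esr2*) and progesterone (*Pgr*). The remaining members, most of them orphan receptors, were *Rora* and *Rorb*, *Esrra*, *Esrrb* and *Esrrg*, *Nr2c1* and *Nr2c2*, *Nr2e1*, *Nr2f1*, *Nr2f2* and *Nr2f6*, *Nr4a2* and *Nr4a3*, *Nr5a1* and *Nr5a2*, *Nr6a1*, *Hnf4a*, and *Nr0b1* and *Nr0b2*. Of the 39 receptors, 23 had a mean over the 4 libraries of 1 TPM or more and were tested, and 16 had a lower mean. TPM, the StringTie abundance used here, is corrected for gene length and scaled to the same total in each library, so that levels can be compared between genes.

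Bulk RNA was sequenced from the dissected granule-cell-enriched (GCE) layer of the vermis of the cerebellum in 2 WT and 2 *Kdm3b*+/- animals, each sequenced as 1 library and labelled as cerebellum, at a depth of 4.92 to 6.69 gigabases aligned. *Kdm3b* encodes a histone demethylase, and the comparison asked how its haploinsufficiency alters transcription in this tissue. The mice were adult males. The *Kdm3b*+/- mice carried the pGT0lxf gene trap vector in an intron of 1 *Kdm3b* allele, derived from the single ES cell line YTC406, were backcrossed to C57Bl/6N and later crossed to C57Bl/6J, and the WT mice were littermates. GCE tissue was cut by hand from slices, so it held every cell type of the dissected layer, and a lower share of cells of 1 type cannot be told apart from less RNA per cell. *Kdm3b* itself was at 9.10 and 11.0 TPM in WT and at 8.30 and 7.90 TPM in *Kdm3b*+/- mice (log2 fold change −0.27, limma unadjusted p = 0.135), and this value counts reads on both sides of the trap.

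Nuclear receptors are transcription factors that bind hormone response elements and exchange corepressor for coactivator complexes when a ligand binds. The RXRs are the common partners: the receptors for thyroid hormone, retinoic acid, oxysterols (LXR), fatty acids (PPAR), bile acids, xenobiotics and vitamin D all bind DNA as dimers with an RXR. In the cerebellum, thyroid hormone is required for granule cell migration and Purkinje cell growth, and loss of *Rora* causes the Purkinje cell degeneration of the staggerer mouse.

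The tissue held a small number of abundant receptors and a long series of weak ones. The 3 highest, *Thra*, *Nr1h2* and *Rxrb*, held 61.6% of the summed mean TPM of all 39 receptors, which was 698.8. Among all genes above 0 TPM, ranked by mean TPM, *Thra* stood at percentile 93.9, *Nr1h2* at 93.1, *Rxrb* at 88.1 and *Rora* at 83.0, while *Nr2f2*, the lowest receptor tested, stood at 31.9. In the order of mean TPM, the ranges over the 4 libraries overlapped for 17 of the 22 neighbouring pairs, so much of the order among neighbours lay within the spread of the mice. The plot of the receptors' TPM shows this order with each library.

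**Figure D1:**
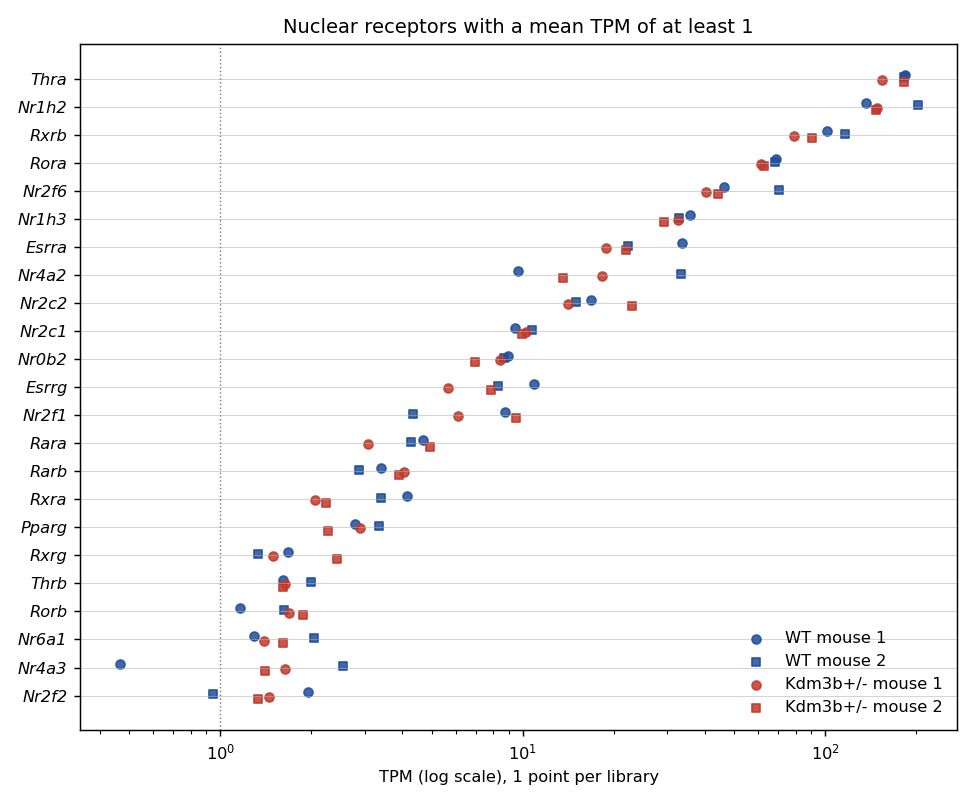
TPM of the 23 tested receptors (x axis, log scale, dotted line at 1 TPM) in each library, ordered from the highest mean (top) to the lowest, with WT mice in blue, *Kdm3b*+/- mice in red, mouse 1 as circles and mouse 2 as squares. *Thra* and *Nr1h2* lie at 136 TPM or more in every library, *Rxra* and *Rxrb* have both red points below both blue points, and *Nr4a2* (9.61 and 33.3) and *Nr4a3* (0.466 and 2.54) are spread widely between the WT mice.

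For 8 receptors, TPM and coverage gave different pictures of the level. Coverage, which StringTie gives beside TPM, is the mean read depth over a gene's exons. For 72.7% of all tested genes, coverage was within 1% of the value that FPKM (a length-corrected abundance before the scaling to a fixed total) implies in all 4 libraries, but this held for 6 of the 23 receptors. For *Rora*, *Nr2c2*, *Esrrg*, *Rara*, *Rxra*, *Pparg*, *Rxrg* and *Thrb* coverage was under 0.5 of the implied value in all 4 libraries, against 5.36% of all tested genes. Ranked by coverage instead of TPM, *Rora* moved from rank 4 to 10, *Esrrg* from 12 to 18 and *Pparg* from 17 to 23, while *Thra*, *Nr1h2* and *Rxrb* stayed the 3 highest. The cause of this gap was not tested.

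No receptor was called different between the genotypes, in a comparison of 2 mice with 2 that can miss real differences. On log2(TPM + 1), a scale that understates changes of weak genes, limma called none of the 23 receptors differentially expressed (DEX, a fold change over 1.2 with a Benjamini-Hochberg adjusted p under 0.05), against 0.461% of the 13652 genes tested. Their adjusted p lay between 0.187 and 0.997. An unadjusted p under 0.05 was found for 2 receptors, *Rxra* and *Rxrb*, while 17.0% of all genes had one. Both were lower in *Kdm3b*+/- mice, which held for 11.5% of all genes, and no receptor was higher, against 5.47%. The median log2 fold change of the 23 receptors was −0.14, from −0.60 to 0.27, and 69.6% were below 0. Over all genes the median was −0.07 and 60.4% were below 0. In 8 receptors both *Kdm3b*+/- mice lay below both WT mice (*Esrra*, *Esrrg*, *Nr0b2*, *Nr1h3*, *Nr2f6*, *Rora*, *Rxra* and *Rxrb*), against 32.0% of all genes, in 2 both lay above (*Rarb* and *Rorb*), against 19.2%, and in 13 the groups overlapped. Set against those shares, the 8 of 23 that were lower in both mice are close to the share of all genes. An exact permutation test of 2 mice against 2 cannot give a two-sided p below 0.333, and the limma values rest on a spread shared across genes.

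**Figure D2:**
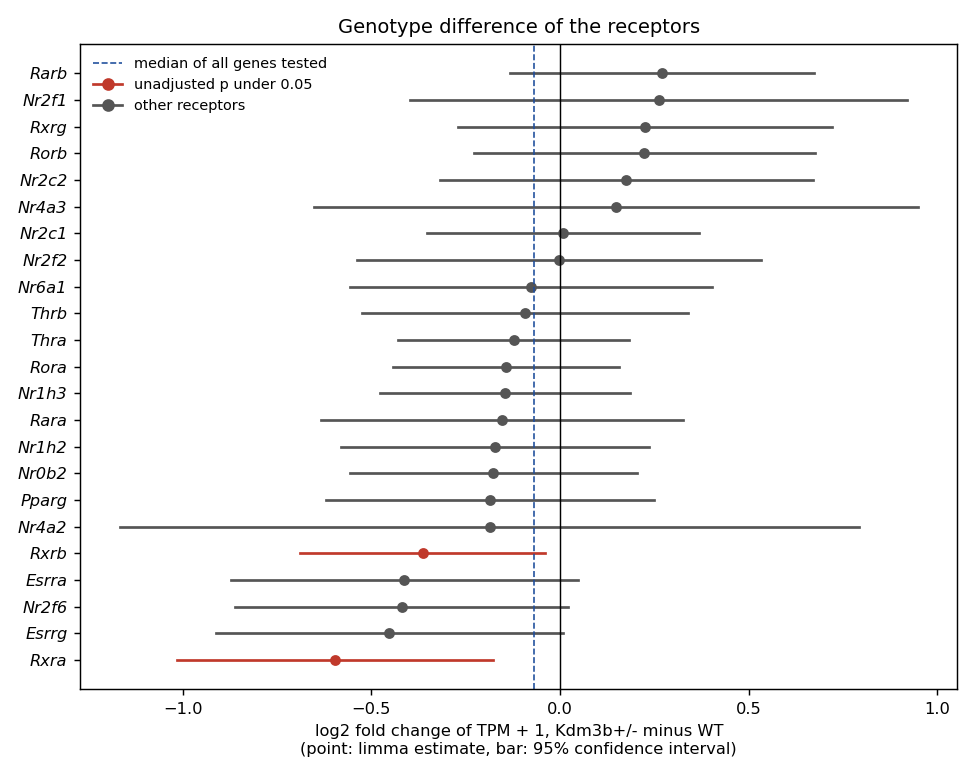
Log2 fold change of TPM + 1 (x axis, *Kdm3b*+/- minus WT, limma estimate with its 95% confidence interval) of the 23 tested receptors, with the median of all genes tested as a dashed line. The intervals of *Rxra* and *Rxrb* (red, unadjusted p under 0.05) lie below 0, and that of *Nr4a2*, from −1.17 to 0.79, is the widest.

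Of the RXRs, the shared partners, *Rxrb* and *Rxra* had the lowest p-values of all receptors. *Rxrb* (chromosome 17, 34031812 to 34038403) was by far the most abundant RXR, with 94.6% to 96.1% of the summed RXR TPM. It was at 101 and 116 TPM in WT (109 ± 10.5, mean ± SD, n = 2) and at 78.5 and 90.1 TPM in *Kdm3b*+/- mice (84.3 ± 8.18, n = 2). Both *Kdm3b*+/- mice were thus below both WT mice. The log2 fold change of *Rxrb* was −0.36 (standard error 0.14, 95% confidence interval −0.69 to −0.04), with an unadjusted p of 0.0319 and an adjusted p of 0.256 from limma. *Rxra* (chromosome 2, 27677201 to 27763319) was at 4.14 and 3.40 TPM in WT (3.77 ± 0.524, n = 2) and at 2.06 and 2.23 TPM in *Kdm3b*+/- mice (2.15 ± 0.125, n = 2). Its groups did not overlap either, and its log2 fold change was −0.60 (standard error 0.19, interval −1.02 to −0.18, unadjusted p = 0.0103, adjusted p = 0.187, limma). *Rxrg* (chromosome 1, 167598362 to 167639623) was at 1.68 and 1.33 TPM in WT and at 1.49 and 2.43 TPM in *Kdm3b*+/- mice. Its groups overlapped (log2 fold change 0.23, interval −0.27 to 0.72). Both calls were lost when certain libraries were left out, while the direction stayed. For *Rxra* the log2 fold change was −0.48 without WT mouse 1 (limma unadjusted p = 0.0534) and −0.56 without *Kdm3b*+/- mouse 1 (limma unadjusted p = 0.0517). For *Rxrb* it was −0.27 without WT mouse 2 (limma unadjusted p = 0.112) and −0.27 without *Kdm3b*+/- mouse 1 (limma unadjusted p = 0.247). With library-scaled coverage in place of TPM, an alternative added once the data had been seen, the unadjusted p was 0.195 for *Rxra* and 0.0613 for *Rxrb*, on a scale where *Rxra* was listed at only 0.151 to 0.296 and a pseudocount of 1 compresses it.

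The summed RXR TPM was 107 and 121 in WT (114 ± 9.70, n = 2) and 82.1 and 94.8 in *Kdm3b*+/- mice (88.4 ± 8.97, n = 2), a ratio of 0.775. The same ratio without overlap of the groups was 0.728 for the summed estrogen-related receptors, 0.779 for the *Nr2f* genes and 0.865 for all 39 receptors, so a lower sum is not particular to the RXRs. The RXR partners counted here were the receptors for thyroid hormone, retinoic acid, oxysterols, fatty acids, bile acids, xenobiotics and vitamin D, and no others, such as *Nr4a2*. They summed to 371 and 432 TPM in WT and to 348 and 374 TPM in *Kdm3b*+/- mice, so their groups overlapped. *Thra* and *Nr1h2* together made up 86.3% to 89.0% of that partner sum. Per 100 TPM of partners there were 28.9 and 28.0 TPM of RXR in WT (28.5 ± 0.635, n = 2) and 23.6 and 25.4 in *Kdm3b*+/- mice (24.5 ± 1.25, n = 2). RXR mRNA was therefore lower relative to the mRNA of the counted partners in both *Kdm3b*+/- mice, by a ratio of 0.860, with *Rxrb* setting the sum. These ratios were described after the receptor values were known and carry no test. Markers of meningeal fibroblasts summed to 53.3 and 45.3 TPM in WT and to 35.1 and 38.1 TPM in *Kdm3b*+/- mice, also without overlap. The largest part of that sum was *Dcn*, at 36.1 and 28.6 TPM in WT and at 23.4 and 22.2 TPM in *Kdm3b*+/- mice. The markers did not move together: 3 of the 5 tested had a log2 fold change below 0, while *Lum* was higher (0.95). Their part in the RXR values was not tested.

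**Figure D3:**
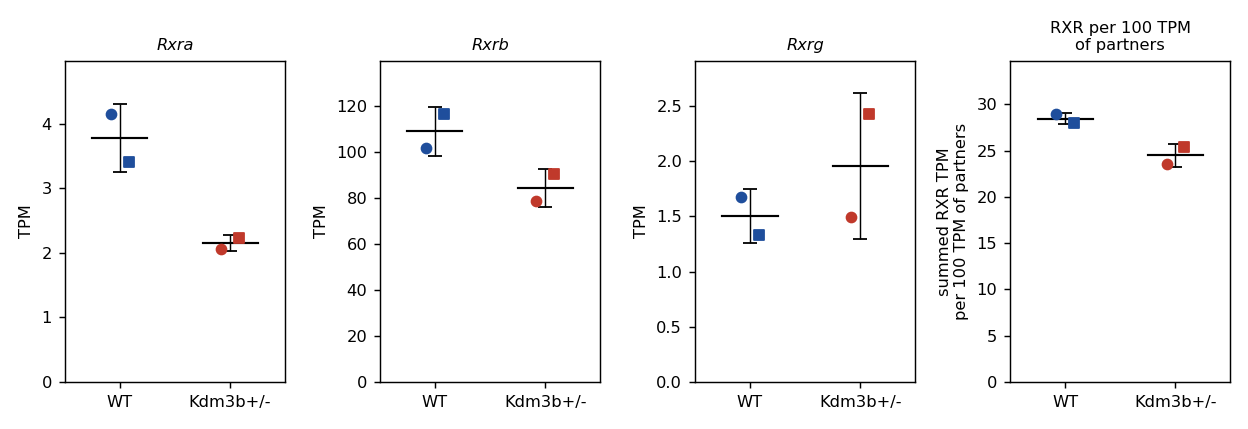
TPM of *Rxra*, *Rxrb* and *Rxrg* and the summed RXR TPM per 100 TPM of partner receptors (y axes from 0) by genotype, with a point per mouse (circle mouse 1, square mouse 2), a line at the mean and bars of 1 SD (n = 2). Points of the genotypes do not overlap for *Rxra*, *Rxrb* and the ratio (28.9 and 28.0 against 23.6 and 25.4), and overlap for *Rxrg*.

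The 3 RXR genes differ in the sequence just upstream of their starts, which is shown because the CpG content of the family members is unlike. The 250 bases before the RefSeq start on GRCm38.p6, where the deposited tables place the same starts, were read for *Rxra* (chr2:27676951-27677200, + strand), *Rxrb* (chr17:34031562-34031811, + strand) and *Rxrg* (chr1:167598112-167598361, + strand). They are printed 5′ to 3′ with each CpG dinucleotide in capitals.
Rxra: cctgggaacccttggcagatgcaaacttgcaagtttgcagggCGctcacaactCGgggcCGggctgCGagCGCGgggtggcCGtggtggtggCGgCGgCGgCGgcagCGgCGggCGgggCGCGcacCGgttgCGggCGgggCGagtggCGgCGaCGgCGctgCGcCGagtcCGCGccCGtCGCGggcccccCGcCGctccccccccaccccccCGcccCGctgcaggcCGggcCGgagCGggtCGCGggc
Rxrb: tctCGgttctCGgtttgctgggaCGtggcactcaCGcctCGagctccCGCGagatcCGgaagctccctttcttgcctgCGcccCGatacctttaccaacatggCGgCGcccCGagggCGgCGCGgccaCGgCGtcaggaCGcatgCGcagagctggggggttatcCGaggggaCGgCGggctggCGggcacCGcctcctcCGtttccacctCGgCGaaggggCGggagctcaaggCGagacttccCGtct
Rxrg: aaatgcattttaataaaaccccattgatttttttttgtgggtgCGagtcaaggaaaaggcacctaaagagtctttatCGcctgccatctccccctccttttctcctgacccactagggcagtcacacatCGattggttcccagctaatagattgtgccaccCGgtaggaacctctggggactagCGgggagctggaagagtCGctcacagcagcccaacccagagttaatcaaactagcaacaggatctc
*Rxra* has 40 CpG dinucleotides in this window and *Rxrb* has 31, with a ratio of observed to expected CpG of 0.976 and 1.036. *Rxrg*, the weakest of the 3 by mean TPM, has 6 and a ratio of 0.401. By this ratio the 3 genes stand in the same order as by mean TPM. By the count of CpG dinucleotides *Rxra* and *Rxrb* change places. The order by TPM did not hold in every mouse, as *Rxra* was at 2.23 and *Rxrg* at 2.43 TPM in *Kdm3b*+/- mouse 2. At similar ratios, *Rxra* had a mean of 2.96 TPM and *Rxrb* of 96.6. A relation of CpG content to level among the 3 genes was not tested.

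Among the RXR partners, the thyroid hormone receptors were represented almost wholly by *Thra*, with 98.9% to 99.1% of the summed TPM of the pair. The TPM of *Thra*, the receptor through which thyroid hormone mainly acts in brain, was 183 and 182 in WT and 154 and 183 in *Kdm3b*+/- mice. The lower value belongs to *Kdm3b*+/- mouse 1 alone (log2 fold change −0.12, interval −0.43 to 0.18). *Thra* shares 1075 bases with *Nr1d1* on the opposite strand, a clock-related receptor with a mean TPM of 147, and without known strand such reads cannot be told apart. *Thrb*, whose product mediates hormone feedback and hearing, was at 1.61 and 2.0 TPM in WT and at 1.64 and 1.61 TPM in *Kdm3b*+/- mice, with overlapping groups.

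The LXRs, sensors of oxysterols that govern cholesterol export, summed to 172 to 235 TPM, against 156 to 185 TPM for the thyroid hormone receptors. *Nr1h2*, which encodes LXRβ, was at 136 and 202 TPM in WT and at 148 and 147 TPM in *Kdm3b*+/- mice, and made up 79.2% to 86.0% of the LXR sum. WT mouse 2 stood above the other 3 mice, and the log2 fold change of −0.17 (interval −0.58 to 0.24) became 0.11 without it. *Nr1h3*, which encodes LXRα, was at 35.8 and 32.8 TPM in WT and at 32.5 and 29.3 TPM in *Kdm3b*+/- mice, with both *Kdm3b*+/- values below both WT values by a margin within its error (log2 fold change −0.15, interval −0.48 to 0.18).

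Retinoic acid receptors and PPARs were weak. *Rara* was at 4.67 and 4.27 TPM in WT and at 3.08 and 4.92 TPM in *Kdm3b*+/- mice, and its groups overlapped. *Rarb*, itself a retinoic acid target gene, was at 3.40 and 2.87 TPM in WT and at 4.05 and 3.91 TPM in *Kdm3b*+/- mice. It was 1 of the 2 receptors with both *Kdm3b*+/- values above both WT values, by a log2 fold change of 0.27 (interval −0.13 to 0.67). *Rarg* lay just under the minimum for a test, with a mean TPM of 0.994 and between 0.822 and 1.13 in the libraries. Their summed TPM was 9.07 and 8.27 in WT and 7.96 and 9.86 in *Kdm3b*+/- mice. *Pparg*, the adipogenic PPAR, had 2.78 and 3.35 against 2.89 and 2.27 (log2 fold change −0.19, interval −0.62 to 0.25). *Ppara* and *Ppard*, which drive fatty acid oxidation, were under 1 TPM in every library, with 0.754 and 0.637 against 0.358 and 0.679 for *Ppara* and 0.477 and 0.476 against 0.649 and 0.471 for *Ppard*.

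Among orphan receptors, *Rora*, which Purkinje cells need to survive, was the most abundant by TPM, at 68.8 and 68.0 TPM in WT and at 61.2 and 62.5 TPM in *Kdm3b*+/- mice. By coverage it was not, standing at rank 10 of the tested receptors, below *Nr2f6* at 4 and *Esrra* at 6. The TPM of its replicates lay close together and the groups did not overlap, but the difference was small (log2 fold change −0.14, interval −0.44 to 0.16, limma adjusted p = 0.603). *Rora* shares 7977 bases on the same strand with *9530091C08Rik* (mean TPM 21.8), so reads may be divided between them. *Rorb* was at 1.17 and 1.63 TPM in WT and at 1.69 and 1.88 TPM in *Kdm3b*+/- mice, the second receptor with both values higher (log2 fold change 0.22, interval −0.23 to 0.67).

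Estrogen-related receptors regulate mitochondrial energy metabolism together with the coactivator *Ppargc1a*. *Esrra* was at 33.6 and 22.2 TPM in WT and at 18.8 and 21.9 TPM in *Kdm3b*+/- mice. WT mouse 1 stood above the other 3, and the log2 fold change of −0.41 (interval −0.87 to 0.05, limma adjusted p = 0.336) fell in size to −0.12 without it. *Esrrg* was at 10.9 and 8.27 TPM in WT and at 5.66 and 7.85 TPM in *Kdm3b*+/- mice, again with the highest value in WT mouse 1 (log2 fold change −0.45, interval −0.91 to 0.01, limma adjusted p = 0.301), and −0.27 without it. WT mouse 1 was also the library with the highest sum of 12 Purkinje cell markers, 1594 TPM against 679 to 884 in the others, and the part of this in the values of both genes was not tested. *Esrrb* was under 1 TPM, between 0.332 and 0.593. *Esrra* shares 50 bases with *Trmt112* on the opposite strand (mean TPM 98.5).

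Of the COUP-TF family, *Nr2f6* was the main member, at 46.2 and 70.1 TPM in WT and at 40.4 and 44.3 TPM in *Kdm3b*+/- mice. Here WT mouse 2 stood apart, and the log2 fold change of −0.42 (interval −0.86 to 0.02, limma adjusted p = 0.311) was −0.13 without it. *Nr2f1*, a regulator of regional identity in the developing brain, was at 8.77 and 4.33 TPM in WT and at 6.12 and 9.50 TPM in *Kdm3b*+/- mice, and it shares 857 bases with *A830082K12Rik* on the opposite strand (mean TPM 5.82). *Nr2f2*, a gene of venous endothelium and ventral neurons, was at 1.95 and 0.945 TPM in WT and at 1.45 and 1.33 TPM in *Kdm3b*+/- mice. Genotype made no detectable difference to *Nr2f1* (log2 fold change 0.26, interval −0.40 to 0.92) or *Nr2f2* (−0.00, interval −0.54 to 0.53), whose WT mice differed from each other more than the group means did.

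The testicular receptors *Nr2c1* and *Nr2c2* were at a middle level. *Nr2c1* varied little, at 9.44 and 10.7 TPM in WT and at 10.3 and 9.96 TPM in *Kdm3b*+/- mice (log2 fold change 0.01, interval −0.35 to 0.37). *Nr2c2* was at 16.8 and 15.0 TPM in WT and at 14.1 and 23.0 TPM in *Kdm3b*+/- mice, and shares 3536 bases with *Mrps25* on the opposite strand (mean TPM 20.2). The germ cell factor *Nr6a1* had 1.30 and 2.04 against 1.40 and 1.62. The groups overlapped for *Nr2c2* and *Nr6a1*.

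*Nr4a2* and *Nr4a3*, immediate early genes induced by neuronal activity and stress, varied widely between the WT mice. *Nr4a2* was at 9.61 and 33.3 TPM in WT and at 18.3 and 13.6 TPM in *Kdm3b*+/- mice. *Nr4a3* followed the same order in the WT mice, with 0.466 and 2.54, and had 1.64 and 1.41 in *Kdm3b*+/- mice. Both *Kdm3b*+/- mice lay between the WT mice for both genes, so the genotype direction depends on which WT mouse is used. Without WT mouse 1 the log2 fold change of *Nr4a2* was −1.03 (limma unadjusted p = 0.00172), and without WT mouse 2 it was 0.66 (unadjusted p = 0.0175).

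*Nr0b2*, a receptor-like repressor that lacks a DNA-binding domain and is best known from liver, was present at a TPM of 8.91 and 8.65 in WT and of 8.44 and 6.93 in *Kdm3b*+/- mice. The groups did not overlap, and the log2 fold change was −0.18 (interval −0.56 to 0.20). Its relative *Nr0b1* was listed above 0 in *Kdm3b*+/- mouse 2 alone, at 0.129.

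The 16 receptors under the minimum include the classical steroid and xenobiotic receptors, and none had more than 1.153 TPM in a library. That highest value was of *Pgr* in WT mouse 1, with 0.510 in WT mouse 2 and 0.412 and 0.389 in *Kdm3b*+/- mice. *Esr1* was between 0.0771 and 0.161, and *Vdr* between 0.0209 and 0.159. *Nr1i3*, between 0.0347 and 0.265, shares 1043 bases with *Tomm40l* on the opposite strand (mean TPM 75.5). *Nr1h4*, *Nr0b1*, *Nr2e1*, *Esr2* and *Nr5a1* were listed at 0 in at least 1 library, with at most 0.196 in *Nr1h4* in WT mouse 1. *Hnf4a* and *Nr5a2*, regulators of liver and endoderm, and *Nr1i2*, the pregnane receptor of liver and gut, were listed at 0 in all 4. No fold change is given for these receptors. *Nr2f2*, with a mean of 1.42, was the receptor just above the minimum.

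Receptors above and below the minimum of 1 TPM differed in their upstream sequence, a feature the grouping by level did not use. RefSeq windows of 250 bases were found for 37 of the 39 receptors, all but *Thra* and *Nr5a1*. A ratio of observed to expected CpG over 0.6 was found for 15 of the 22 tested receptors that had a window (68.2%, median ratio 0.754) and for 4 of the 15 untested ones (26.7%, median 0.342). The same split held among all protein-coding genes, with 67.8% of 10248 genes at or above the minimum and 14.1% of 6271 genes below it, so it is not particular to the receptors. The listed start lay over 1 kb from the deposited one for 3 of them, *Rarb*, *Nr1h4* and *Nr2c2*. The windows of *Nr0b2* (chr4:133553126-133553375, + strand), *Hnf4a* (chr2:163506607-163506856, + strand) and *Nr1i2* (chr16:38294825-38295074, − strand) are shown in the same notation, the first as a receptor above the minimum that goes against the split and the others as receptors listed at 0.
Nr0b2: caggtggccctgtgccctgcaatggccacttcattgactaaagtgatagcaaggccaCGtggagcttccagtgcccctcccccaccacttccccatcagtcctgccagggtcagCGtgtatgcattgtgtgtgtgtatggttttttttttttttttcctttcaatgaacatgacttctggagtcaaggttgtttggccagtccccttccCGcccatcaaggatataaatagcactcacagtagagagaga
Hnf4a: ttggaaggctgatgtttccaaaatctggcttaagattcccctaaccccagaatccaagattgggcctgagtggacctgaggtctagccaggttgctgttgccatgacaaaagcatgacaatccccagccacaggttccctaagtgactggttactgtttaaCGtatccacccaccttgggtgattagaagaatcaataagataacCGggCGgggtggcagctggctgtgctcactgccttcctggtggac
Nr1i2: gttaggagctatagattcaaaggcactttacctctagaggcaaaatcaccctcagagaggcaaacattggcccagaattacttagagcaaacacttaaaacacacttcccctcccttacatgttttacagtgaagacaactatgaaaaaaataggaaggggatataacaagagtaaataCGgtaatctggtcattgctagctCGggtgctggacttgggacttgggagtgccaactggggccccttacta
*Nr0b2* has 3 CpG dinucleotides (ratio 0.193) at a mean TPM of 8.23. *Hnf4a* has 3 (ratio 0.183) and *Nr1i2* has 2 (ratio 0.165). The other receptors above the minimum with a ratio under 0.6 were *Nr2f2* (0.064), *Nr1h3* (0.283), *Rxrg* (0.401), *Nr6a1* (0.463), *Rara* (0.489) and *Esrrg* (0.589).

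**Figure D4:**
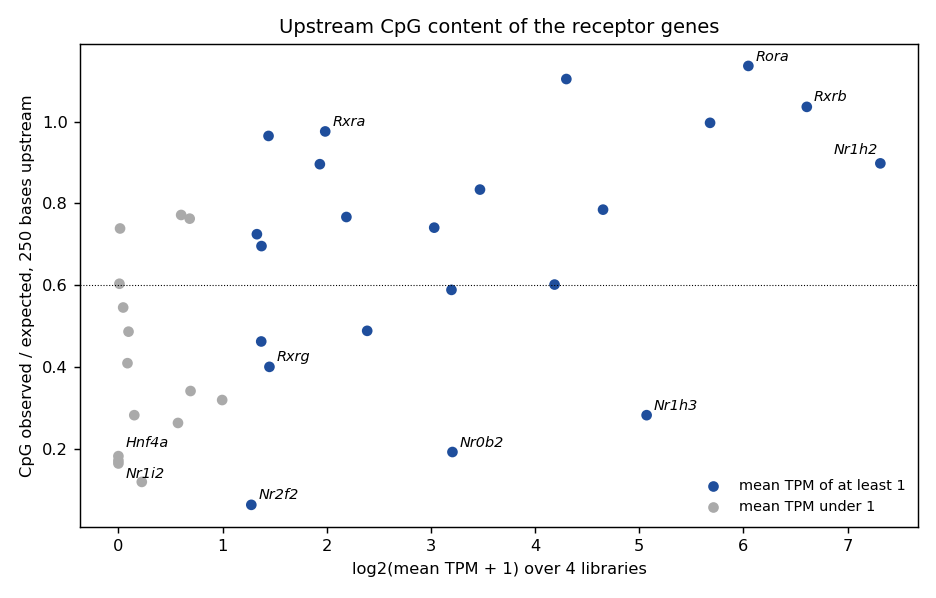
Ratio of observed to expected CpG in the 250 bases upstream of the start (y axis, dotted line at 0.6) against log2(mean TPM + 1) over the 4 libraries (x axis) for the 37 receptors with a sequence, tested receptors in blue and the others in grey. Most blue points lie above the line (15 of 22) and most grey points below it (11 of 15). *Nr0b2*, *Nr1h3* and *Nr2f2* are the blue points with the lowest ratios.

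The co-regulators that receptors recruit were all expressed. Their counts at an unadjusted limma p under 0.05 stand beside 17.0% of all genes, 11.5% lower and 5.47% higher. Of 15 coactivators, *Carm1*, an arginine methyltransferase, had an unadjusted limma p under 0.05, at 33.8 and 42.0 TPM in WT and at 23.0 and 27.5 TPM in *Kdm3b*+/- mice (log2 fold change −0.56, limma unadjusted p = 0.00827, adjusted p = 0.177). *Ppargc1a*, a partner of PPARs and estrogen-related receptors, had a log2 fold change of −0.29 (limma adjusted p = 0.428) and the acetyltransferase *Kat2a* of −0.30 (limma adjusted p = 0.458). The median of the 15 was −0.17. Of 9 corepressors, *Hr*, which binds thyroid hormone receptors and is also a target gene of the hormone, was at 32.0 and 44.2 TPM in WT and at 18.8 and 20.9 TPM in *Kdm3b*+/- mice. It had the lowest p of all co-regulators (log2 fold change −0.89, standard error 0.18, limma unadjusted p = 0.000794, adjusted p = 0.0977). *Nrip1* came next (−0.34, limma adjusted p = 0.402), and the median of the 9 was −0.06.

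Ligand handling and target genes were examined by list, each read beside the median of −0.07 over all genes. Counts at an unadjusted limma p under 0.05 stand beside 17.0% of all genes, 11.5% lower and 5.47% higher. Of 14 genes of retinoid handling, 7 were tested and *Aldh1a1*, a retinaldehyde dehydrogenase, had an unadjusted limma p under 0.05. It was at 487 and 518 TPM in WT and at 359 and 430 TPM in *Kdm3b*+/- mice (log2 fold change −0.35, unadjusted p = 0.0253, adjusted p = 0.242). The retinal reductase *Dhrs3* had a log2 fold change of 0.30 (limma adjusted p = 0.336), and *Crabp1* and *Cyp26c1* were listed at 0 in all libraries. The median of the list was −0.02. None of the 4 tested genes of thyroid hormone handling out of 8 had such a p. Their median was 0.04, with the transporter *Slco1c1* at 0.10 and the deiodinase *Dio2* at −0.05. Of 6 thyroid hormone target genes, *Hr* alone had one, *Thrsp* was at 0.21 and *Mbp* at −0.05, with a median of −0.06. None of the 3 tested of 7 retinoic acid target genes had one, and their median was 0.12, with *Dhrs3*, *Tgm2* (−0.39) and *Cyp26b1* (0.12).

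LXR target genes went both ways. All 12 were tested, and 3 were lower and 1 was higher with an unadjusted limma p under 0.05, against 11.5% and 5.47% of all genes, around a median log2 fold change of −0.15. *Pltp*, a phospholipid transfer protein, was at 151 and 163 TPM in WT and at 184 and 241 TPM in *Kdm3b*+/- mice (0.42, limma unadjusted p = 0.0233, adjusted p = 0.237). The sterol exporters *Abcg4* (−0.46, limma adjusted p = 0.250) and *Abca1* (−0.42, limma adjusted p = 0.286) were lower, as was *Srebf1*, the regulator of fatty acid synthesis. *Apoe*, a lipid carrier of astrocytes, was at 0.03.

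PPAR target genes are mostly enzymes and carriers of fatty acid oxidation. Among the lists of co-regulators, ligand handling and target genes, theirs held the largest share of genes lower at an unadjusted limma p under 0.05. Of 18 genes 14 were tested, and 9 had an unadjusted limma p under 0.05 and were lower, against 11.5% of all genes, while none was higher. Among the 9 were *Pdk4*, *Ucp2*, *Angptl4*, *Ehhadh*, *Plin2*, *Cpt2* and *Cpt1a*. *Pdk4*, which restrains glucose oxidation, was at 6.13 and 8.10 TPM in WT and at 3.21 and 3.03 TPM in *Kdm3b*+/- mice (−0.97 on the log2 scale, standard error 0.19, limma adjusted p = 0.0805). *Ucp2*, a mitochondrial carrier, had 144 and 87.1 against 48.6 and 54.1 (−1.11 on the log2 scale, standard error 0.22, limma adjusted p = 0.0806). The median of the 14 genes was −0.52, and 13 were below 0. No PPAR target gene was DEX in this limma fit, while the authors' DESeq2 test on counts listed *Angptl4* among its lower DEX genes. *Hadha* (−0.41), *Acadl* (−0.25), *Slc25a20* (−0.11), *Ucp3* (−0.07) and *Acadm* (0.07) did not pass, and *Cyp4a10*, *Cyp4a14* and *Fgf21* were listed at 0 throughout. The count of 9 was 8 without WT mouse 1, in which *Ucp2* was highest, and 6 without *Kdm3b*+/- mouse 1. *Angptl4* was known to be lower in these libraries when the list was written. The paper also reports, from the same libraries, that lower DEX genes mostly relate to lipid metabolism. The list and its count are therefore not independent evidence of direction. The sum of meningeal fibroblast markers was lower in the same mice, although *Lum* among them was higher. The Purkinje cell sum was highest in WT mouse 1. The part of both sums in these values was not tested. Over all pathway lists together, including those for neurosteroid synthesis and vitamin D, 76 of 99 genes were tested and none was DEX in this fit. With an unadjusted limma p under 0.05, 15 were lower and 1 was higher, against 11.5% and 5.47% of all genes. The 9 PPAR target genes were among the 15, and the median of the 76 was −0.11.

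**Figure D5:**
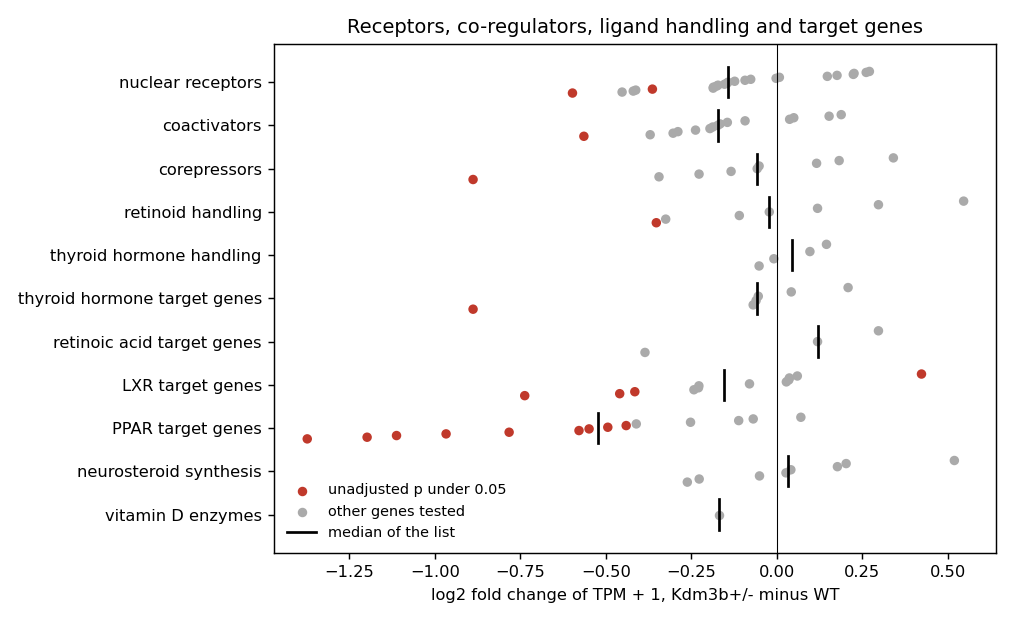
Log2 fold change of TPM + 1 (x axis, *Kdm3b*+/- minus WT) of each tested gene, by list (rows), in red with an unadjusted limma p under 0.05, with a black line at the median of each list. PPAR target genes are shifted most (median −0.52, 9 of 14 red and below 0), while the receptors have a median of −0.14 and 2 red points.

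Cell type markers moved in part with genotype or with single libraries, and the counts at an unadjusted limma p under 0.05 given here stand beside 11.5% of all genes lower and 5.47% higher. Granule cell markers summed to 4030 to 4789 TPM without separation of the groups (1 of 12 lower, *Cbln3*, and 2 higher, *Zic1* and *Cbln1*). Purkinje cell markers (3 of 11 lower, *Homer3*, *Lhx1* and *Slc1a6*) and interneuron markers (2 of 5 lower, *Gad1* and *Kit*, with *Gad2* at −0.29) both had their highest sum in WT mouse 1, for interneurons 459 against 207 to 261. All 11 tested Purkinje cell markers had a log2 fold change below 0, with a median of −0.49. Oligodendrocyte markers summed to 14900 to 17820 TPM (*Mobp* lower and DEX, *Mog* not past the test), and astrocyte and Bergmann glia markers to 1156 to 1368 (3 of 10 lower, *Aldh1l1* and *Gdf10* among them, and 2 higher, with *Aqp4* DEX). Microglia markers summed to 192 and 196 TPM in WT and to 199 and 221 TPM in *Kdm3b*+/- mice, without overlap (2 of 8 higher, *Aif1* and *Trem2*, with *Csf1r* at −0.40). Endothelial and mural marker sums, 443 to 493, overlapped between genotypes (1 of 11 lower, *Slco1a4*, and 1 higher, *Rgs5*, with *Pecam1* at −0.51). Of 5 tested meningeal fibroblast markers, whose sum was lower in both *Kdm3b*+/- mice like the RXR sum, 3 were lower, *Slc6a13* and *Dcn* among them, and *Lum* was higher. Choroid plexus markers (*Clic6*, *Otx2*) summed to 28.4 to 33.1, with neither of 2 past the test. Of 5 red blood cell markers 3 were higher, *Hba-a1* and *Hbb-bt* among them, and *Hbb-bs* was lower. *Hbb-bs* differed widely between the WT mice, at 506 TPM in mouse 1 and 8.08 in mouse 2, against 0.00768 and 0.142 in *Kdm3b*+/- mice. No marker of these lists was at 0 in all libraries, and the part of these shifts in the receptor values was not tested.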

How the data were processed

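RNA-seq of 4 libraries, 1 per mouse, was examined, and mice were grouped by the genotype in the labels. The authors trimmed the reads, aligned them with STAR and estimated abundance with StringTie. Versions, genome build, annotation and strandedness are not given in the sources used here. Per library they deposited coverage (mean read depth over exons, not normalized), FPKM (which the authors corrected for gene length and mapped fragments) and TPM (brought further to a fixed total). From the deposited coverage and FPKM, depth was 4.92 to 6.69 gigabases aligned, and read counts were not recovered. The authors tested counts with DESeq2, which could not be repeated on TPM.

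Symbols came from RefSeq (GRCm38.p6) for 24462 of 24532 identifiers, entries sharing an identifier were summed, and all 39 receptors were found. Genes at a mean of 1 TPM or more were tested on log2(TPM + 1) in limma version 3.58.1 (lmFit, then eBayes with trend; R version 4.3.3), genotype being the only term and Benjamini-Hochberg adjustment over all 13652 genes. Scripts were tested on simulated data. Upstream sequences were RefSeq windows of GRCm38.p6. Other software was statmod version 1.5.0, Python version 3.11.15, pandas version 2.3.3, NumPy version 2.4.6 and Matplotlib version 3.10.9.

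Every receptor is named. From the lists of co-regulators, ligand handling, target genes, steroid synthesis and cell type markers, the 3 tested genes with the lowest p are named, except 6 genes that are counted in their lists but not reported here by themselves, with further genes of the LXR and PPAR lists named after their values were seen. Members and lists were chosen with earlier results of these data known. Alternatives were a pseudocount of 0.1, FPKM, no TPM minimum, a minimum of 5, median-ratio scaling, quantile normalization, the highest entry per gene, robust eBayes, eBayes without trend, a block for the replicate number and each library left out. Library-scaled coverage, and the alternatives for the RXR ratios and the PPAR target count, were added after seeing the data.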

Additional observations from a re-analysis of the deposited data

How the results depend on the processing

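No receptor was DEX in limma under any alternative, while 2 had an unadjusted p under 0.05 in the reported fit. That count of 2 was 1 with FPKM, with median-ratio scaling and with eBayes without trend (*Rxra* each time), 0 with library-scaled coverage, and 0 to 5 with a library left out. It was also 2, with other members, of the 39 receptors tested with no TPM minimum (*Rora* and *Rxra*). Of the 13 tested with a minimum of 5 it was 2 as well (*Esrrg* and *Rxrb*), and *Rxra* was not tested there. It was 3 with robust eBayes. Counts over all 13652 genes tested did not move in step with the receptor count. They were 2318 in the reported fit, 2214 with FPKM (1 receptor) and 2128 with library-scaled coverage (0 receptors). With the replicate block the receptor count was 5 (*Esrra*, *Esrrg*, *Nr2f6*, *Rxra* and *Rxrb*), and the count over all genes was 3206. Same-numbered mice are different animals and the labels state no pairing, so the block has no basis in the labels. Over all genes tested, their deviations from the group means correlated at 0.121, which cannot decide whether they shared a batch. The median log2 fold change of the 23 receptors was −0.14 in the reported fit. It was −0.0772 with FPKM, −0.0726 with median-ratio scaling, −0.0618 with quantile normalization and −0.0408 with library-scaled coverage. With no TPM minimum it was −0.0525, over all 39 receptors, 16 of them with a mean under 1 TPM. With a library left out it was −0.13 to −0.0836. The count of all DEX genes, 63, was 38 with FPKM, 37 without trend, 14 with library-scaled coverage, 2 with no TPM minimum, 600 with the replicate block and 21 to 188 with a library left out.

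Of 335 values of single receptors under the alternatives, 315 kept their direction and 20 reversed. With all 4 libraries *Nr2f2* alone reversed, to 0.027 with a pseudocount of 0.1, 0.0139 with FPKM and with library-scaled coverage, 0.0363 with median-ratio scaling and 0.0375 with quantile normalization. Leaving out a library reversed 11 receptors, with ranges of −0.45 to 0.11 for *Nr1h2*, −0.0752 to 0.0899 for *Nr2c1*, −0.16 to 0.51 for *Nr2c2*, −0.18 to 0.70 for *Nr2f1*, −0.30 to 0.30 for *Nr2f2*, −1.03 to 0.66 for *Nr4a2*, −0.49 to 0.78 for *Nr4a3*, −0.28 to 0.13 for *Nr6a1*, −0.42 to 0.12 for *Rara*, −0.0034 to 0.46 for *Rxrg* and −0.192 to 0.00613 for *Thrb*. With a library left out, the summed RXR ratio, 0.775, ran from 0.720 to 0.831 and the ratio per partner, 0.860, from 0.829 to 0.891. FPKM and median-ratio scaling multiply all values of a library alike, so they cannot alter the ratio per partner. Library-scaled coverage was not tried for these ratios. Under the alternatives with all 4 libraries, the 9 lower PPAR target genes became 6 to 10. With a library left out, the lone mouse of a group was assumed to vary like the others. TPM carries no read counts, so the depth behind weak receptors, down to a coverage of 0.303, limits what could be detected.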

Other observations

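Genes of steroid and vitamin D metabolism held no gene called between the genotypes. Of 12 genes of neurosteroid synthesis 8 were tested and none had an unadjusted limma p under 0.05, against 17.0% of all genes. Their median log2 fold change was 0.03. *Akr1c14*, which makes neuroactive steroids, was at 1.48 and 0.551 TPM in WT and at 1.60 and 2.03 TPM in *Kdm3b*+/- mice (0.52, limma adjusted p = 0.330). *Tspo*, of the outer mitochondrial membrane, had a log2 fold change of −0.26 and the peroxisomal enzyme *Hsd17b4* of −0.23. *Cyp19a1*, the aromatase that makes estrogen, and *Hsd3b1* were listed at 0 in all libraries. Of 4 vitamin D enzymes, *Cyp27a1* alone was tested, at −0.17 (limma adjusted p = 0.568).

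The half-site AGGTCA, to which many of these receptors bind, was looked for on both strands of the 250 bases upstream. It lay in 6 of 37 receptor windows (16.2%), in 2 of the 22 tested receptors with a window (9.1%) and in 4 of the 15 untested ones (26.7%). Over all protein-coding genes, those tested and those under the TPM minimum, the shares were 12.2%, 10.1% and 15.6%. A match is a description of the letters, not a binding site.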
